A study of Mus musculus with 18 samples.

Results

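The mitochondrial chromosome of the mouse codes for 13 messenger RNAs, 2 ribosomal RNAs and 22 transfer RNAs, and all 37 were present among the 34921 genes of the expression table used here. They were chosen by gene identifier alone, as every gene that GENCODE release M21 places on that chromosome of genome build GRCm38. The expression data name 24 of them with a leading mt-, and the other 13, the mRNAs, as ND1, COX1, ATP8 and the like. The symbols mt-Nd1, mt-Co1 and mt-Atp8 are used for them below.

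The values come from total RNA of micro-punched brain of 9-week-old male C57BL/6 mice, an inbred strain, after photothrombosis, a focal stroke in which light clots the vessels under it. Rose bengal, a light-sensitive dye, was injected into the abdomen at 100 mg/kg, and the skull was lit 5 min later for 15 min (532 nm, 40 mW, fiber of 2 mm) at a spot 2 mm right of bregma. Of the 6 groups, each had 3 libraries, 18 in all: the lesioned right side at 4 h (libraries 2, 3 and 6), 1 day (1, 3 and 4), 3 days (1, 2 and 8) and 10 days (1, 2 and 5), left-side punches called contralateral left (1, 3 and 5), and the right side of sham mice, called sham right (1, 2 and 3). The left-side punches come from mice with stroke according to the protocol, but their description and disease state say sham, and no time is given; neither the steps that sham mice received nor any mouse common to both sides is spelled out. Values below follow this order of libraries within each group, and every comparison is with sham right, so the comparisons share those 3 libraries.

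Mitochondrial DNA is a small circle held in many copies per cell and read from both strands into long precursor RNAs by a polymerase of its own. The tRNAs lie between the other genes and are cut out of the precursor, which frees the rRNAs and mRNAs on either side. The mRNAs code for core subunits of respiratory complexes I, III and IV and of ATP synthase, the rRNAs build the mitochondrial ribosome, and the tRNAs serve it; every other protein of the organelle is made from nuclear genes. Neurons depend heavily on this chain, which needs oxygen as its final electron acceptor.

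At 3 days after stroke all 3 libraries had less of nearly every mitochondrial RNA than all 3 of sham right: 12 of 13 mRNAs, both rRNAs and 18 of 22 tRNAs. Of all genes tested, 9.67% did the same. As shares of each library's total, both rRNAs and mt-Nd1, mt-Nd3, mt-Nd4, mt-Atp6 and mt-Atp8 still lay wholly below sham right. The other mRNAs overlapped with it on that scale, for which the count over all genes was not made. In size these differences were moderate, with a median log2 fold change of -0.31 for the mRNAs and -0.77 for the rRNAs. With 3 mice a group, the test across all genes called 0 of the 37 RNAs at any time. That test uses a spread shared by all 6 groups. A fit of only the 3-day and sham right libraries called 14 of the 37 lower, and 13.1% of all genes. The largest values at 10 days came from a single library.

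Some sequences bear on how these values can be read, and they are shown for that reason. They were taken from the GENCODE release M21 transcripts (GRCm38). A stretch of chromosome 1 (chr1:24611535-24616197, minus strand) holds 7 annotated pseudogenes copied from mitochondrial DNA, and their order follows chrM:6390-11042 with a shift of 1 base along the way. Over their aligned length, 5 of these are identical to a mitochondrial mRNA and the other 2 differ from it at 1 base. For Gm29216 this length is 483 of its 492 bases. The pair mt-Nd3 (chrM:9459-9491) and Gm28438 (chr1:24613087-24613119) differs by T3C, and the pair mt-Co1 (chrM:6390-6423) and Gm29216 (chr1:24616155-24616188) by A1066T, counted from the first base of the mitochondrial mRNA, with the mitochondrial base first. The differing base is in capitals.
mt-Nd3: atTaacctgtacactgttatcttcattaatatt
Gm28438: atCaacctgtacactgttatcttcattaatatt
mt-Co1: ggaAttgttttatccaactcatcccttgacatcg
Gm29216: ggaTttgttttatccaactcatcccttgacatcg

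Neighbouring mitochondrial genes also share bases with each other. The longest overlap joins mt-Atp8 and mt-Atp6 (chrM:7897-7999 is shown), where 43 bases, in capitals, belong to both reading frames, so reads there fit either mRNA.
mt-Atp8 to mt-Atp6: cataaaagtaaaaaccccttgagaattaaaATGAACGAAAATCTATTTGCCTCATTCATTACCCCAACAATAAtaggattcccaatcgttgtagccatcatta

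The tRNA with the smallest adjusted p at each time after stroke is shown next, each on its own strand, with bases shared with a neighbouring gene in capitals. For 4 h this is the isoleucine tRNA mt-Ti (chrM:3706-3774, plus strand), for 1 day the glutamine tRNA mt-Tq (chrM:3772-3842, minus strand), for 3 days the tryptophan tRNA mt-Tw (chrM:4950-5016, plus strand) and for 10 days the proline tRNA mt-Tp (chrM:15356-15422, minus strand).
mt-Ti: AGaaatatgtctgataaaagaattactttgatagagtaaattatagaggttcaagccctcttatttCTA
mt-Tq: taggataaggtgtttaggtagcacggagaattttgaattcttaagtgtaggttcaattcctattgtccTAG
mt-Tw: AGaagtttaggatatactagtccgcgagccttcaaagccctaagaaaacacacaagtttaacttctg
mt-Tp: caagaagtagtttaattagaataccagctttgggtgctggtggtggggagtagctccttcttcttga
mt-Ti and mt-Tq overlap by 3 bases on opposite strands, and mt-Nd5 and mt-Nd6 by 14. Strand handling is not given in the sources used here, so RNA of a gene and RNA from the opposite strand of it cannot be told apart.

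The unit is FPKM, fragments scaled to gene length and library size, as the authors deposited it. It is scaled to a library's fragments, so more fragments of these RNAs leave fewer for all other genes. The summed FPKM is not fixed by this and ran from 311067 to 470682. In 10 days 5 the mitochondrial RNAs summed to 209920 FPKM and all other genes to 260761, against 110257 and 266185 in 10 days 1. A share of the summed FPKM counts RNAs per length and is not a share of reads. Nominal depths worked out from the smallest values put 10 days 5 as the shallowest library and 4 h 6 as the deepest, in units of 1e6 fragments at 12.6 and 29.5. At those depths an mRNA of this chromosome stood for at least 5340 nominal fragments per library and the median tRNA for 76.4 to 165. The mRNAs and rRNAs were thus far above the detection limit in all 18 libraries, and spread between libraries sets their precision. Differences between mice and between preparations cannot be told apart in that spread. In whole tissue, fewer cells of a type and less RNA per cell cannot be told apart.

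Per length, mt-Co1 and mt-Atp8 were the most abundant mRNAs, with median FPKM of 19661 and 18569 over the 18 libraries, followed by mt-Atp6 at 12328. Then came mt-Co3 (8539), mt-Cytb (8042), mt-Co2 (7374), mt-Nd1 (6927), mt-Nd4 (4746), mt-Nd2 (4185), mt-Nd5 (2605), mt-Nd4l (2301), mt-Nd6 (2237) and mt-Nd3 (2051). This order of the deposited FPKM held closely between libraries. It may not be the order in the tissue. Of these mRNAs 7 have a near-identical copy on chromosome 1, and how shared reads were assigned is not given. Their places, and those of the others relative to them, are therefore uncertain. How length was corrected is not given either, which bears most on the short mt-Atp8. mt-Atp6 kept rank 3 in all 18 libraries, and mt-Co1 to mt-Nd5 never moved by more than 1 place. Neighbours exchanged places (mt-Co1 with mt-Atp8, mt-Co3 with mt-Cytb, mt-Co2 with mt-Nd1, mt-Nd4 with mt-Nd2), so their levels are not apart beyond the spread. The lowest 3 shifted most, with mt-Nd3 between rank 10 and rank 13. The rRNAs mt-Rnr1 and mt-Rnr2 had medians of 3799.8 and 3655 FPKM, a little below mt-Nd2.

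**Figure D1:**
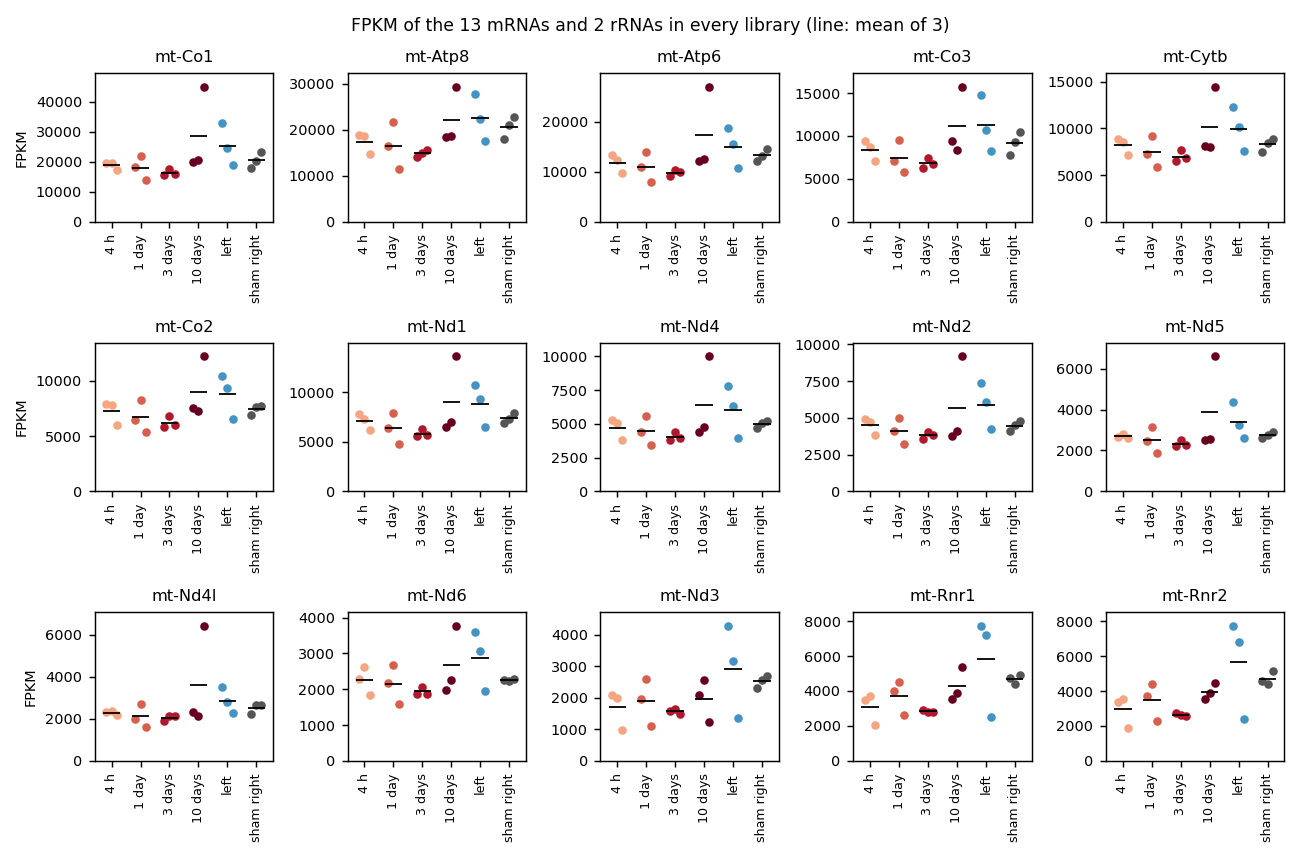
FPKM (linear axis from 0) of the 13 mRNAs and 2 rRNAs in each of the 18 libraries, 1 point per library and a line at the mean of each group of 3. At 3 days the points of nearly every gene sit together below sham right, and at 10 days the library numbered 5 stands far above its neighbours for 12 of the 13 mRNAs.

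All 37 RNAs together held a large part of every library. Their share of the summed FPKM was 31.6%, 31.9% and 28.9% at 4 h, 28.8%, 33.0% and 24.4% at 1 day, 25.6%, 27.2% and 27.1% at 3 days and 29.3%, 29.8% and 44.6% at 10 days. On the contralateral left it was 39.0%, 33.5% and 30.2%, against 29.2%, 32.2% and 33.1% in sham right. The group means were 30.8% ± 1.66, 28.7% ± 4.32, 26.7% ± 0.889 and 34.6% ± 8.7 at 4 h, 1 day, 3 days and 10 days and 34.2% ± 4.43 on the contralateral left, against 31.5% ± 2.05 in sham right (SD, n = 3 each). The 3 libraries at 3 days lay below all 3 of sham right, and the groups overlapped at 4 h, 1 day and 10 days. The mean at 10 days rests on library 5, without which it is 29.5%. The mRNAs made up most of this share, with 22.0% to 41.4% of the summed FPKM over the 18 libraries.

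**Figure D2:**
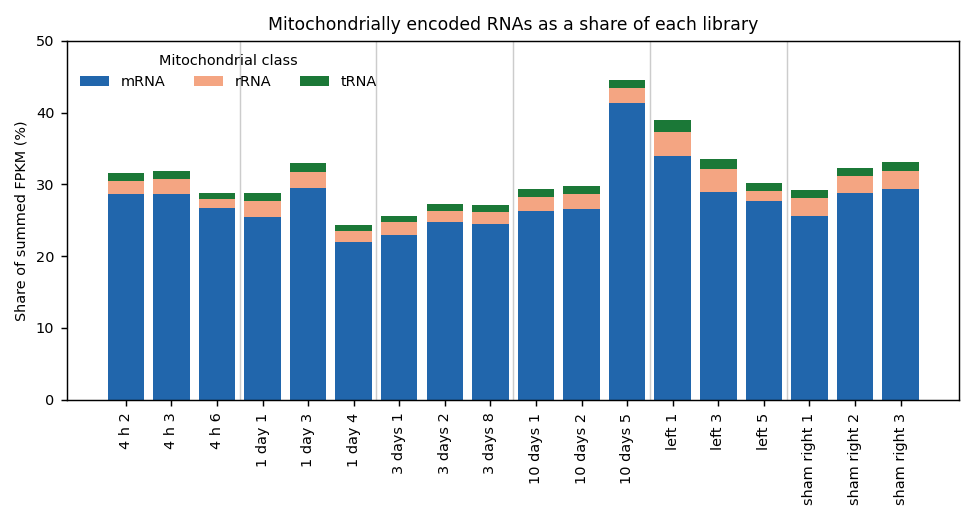
Share of each library's summed FPKM (per cent, bars from 0) held by mitochondrial mRNAs, rRNAs and tRNAs, 1 stacked bar per library. The bars at 3 days reach 25.6% to 27.2%, below the sham right bars of 29.2% to 33.1%, and 10 days 5 reaches 44.6%.

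Tests were made with limma on log2(FPKM + 1), across the 14016 genes that reached 1 FPKM in 3 libraries, and a call means an adjusted p under 0.05. All 37 members were tested. At 4 h, 1 day, 3 days and 10 days 0 of the 37 were called, where 2.18%, 1.18%, 7.36% and 7.13% of all genes tested were called, and on the contralateral left 0 of 37 with 0.0285% of all genes. An F-test over the 4 times called 0 of 37 and 13.5% of all genes. At an unadjusted p under 0.05, limma gave 1 member lower at 4 h (mt-Ti), 0 at 1 day, 5 lower at 3 days (mt-Rnr2, mt-Th, mt-Ti, mt-Tl2 and mt-Tw), 1 higher at 10 days (mt-Tp) and 0 on the contralateral left. Of all genes tested, 8.27% were lower at 4 h by that measure, 2.48% were lower at 3 days and 10.7% higher at 10 days; at 1 day 5.06% were higher and 3.52% lower, and on the contralateral left 1.78% and 5.91%. The same tool without trend and robust moderation called 0 in every comparison as well. Leaving out 1 library of the groups compared at a time gave 1 member called at a single time: mt-Tp, the proline tRNA, at 10 days without library 1, where the F-test also called 1 member.

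Complex I, which passes electrons from NADH into the chain, takes 7 of the mRNAs. mt-Nd1, part of the membrane arm next to the quinone site, had 7749.6, 7300.4 and 6145 FPKM at 4 h, 6423, 7899.8 and 4785 at 1 day, 5549, 6263 and 5625 at 3 days and 6436, 6978 and 13599.5 at 10 days. mt-Nd1 stood at 10729.6, 9270.2 and 6448 FPKM on the contralateral left, against 6876, 7328 and 7859 in sham right. At 3 days the group did not overlap with sham right, and its log2 fold change was -0.34 ± 0.28 (SE; limma, adjusted p = 0.654). mt-Nd2, a proton-pumping subunit of the same arm, had 4930.5, 4709 and 3809 FPKM at 4 h, 4125, 4985 and 3234 at 1 day, 3575, 4016 and 3862 at 3 days and 3739.9, 4107 and 9195 at 10 days. mt-Nd2 stood at 7393, 6091 and 4229 FPKM on the contralateral left, against 4140.2, 4529.9 and 4754 in sham right. The 3 highest values were those of 10 days 5 and contralateral left 1 and 3, and the 3-day libraries lay below sham right.

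mt-Nd4 and mt-Nd4l, whose reading frames overlap on a shared mRNA, are further subunits of the membrane arm. mt-Nd4 had 5263, 5054 and 3814 FPKM at 4 h, 4382, 5553 and 3468 at 1 day, 3833, 4435 and 3931 at 3 days and 4384, 4759 and 10017 at 10 days. mt-Nd4 stood at 7803, 6336 and 3949 FPKM on the contralateral left, against 4732, 5096 and 5233 in sham right. The 3-day libraries were below those of sham right, and the other times overlapped with them. The short mt-Nd4l had 2342, 2356 and 2193 FPKM at 4 h, 2014, 2732 and 1636 at 1 day, 1882, 2129 and 2154 at 3 days and 2327, 2124 and 6433 at 10 days. mt-Nd4l stood at 3520.1, 2788 and 2274 FPKM on the contralateral left, against 2226, 2675 and 2672 in sham right. In both, 10 days 5 was the highest of all 18 libraries and every 3-day library lay below sham right. mt-Nd5, the largest proton-pumping subunit, had 2657, 2812 and 2600.0 FPKM at 4 h, 2475, 3135 and 1893 at 1 day, 2216, 2489 and 2273 at 3 days and 2503, 2556 and 6613 at 10 days. mt-Nd5 stood at 4373, 3268 and 2609 FPKM on the contralateral left, against 2596, 2766 and 2887 in sham right. Here too the 3-day libraries were all below sham right, and 10 days 5 was the highest of the 18.

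mt-Nd6, the only mRNA on the other strand, had 2292, 2634 and 1839.5 FPKM at 4 h, 2184, 2689.5 and 1589 at 1 day, 1878, 2076 and 1861 at 3 days and 1989.7, 2253 and 3774 at 10 days. mt-Nd6 stood at 3589, 3074 and 1945 FPKM on the contralateral left, against 2251, 2222 and 2285 in sham right. At 4 h its log2 fold change was -0.01 ± 0.27 (SE; adjusted p = 0.984), the libraries falling on both sides of sham right.

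mt-Nd3 codes for a small subunit at the junction of the arms of the complex, and it departed most from the other mRNAs. It had 2096, 2006 and 988 FPKM at 4 h, 1976, 2595 and 1110.0 at 1 day, 1585, 1653 and 1499 at 3 days and 2099, 2558 and 1221 at 10 days. mt-Nd3 stood at 4290.3, 3163 and 1347 FPKM on the contralateral left, against 2315, 2569.9 and 2695 in sham right. All 3 libraries lay below sham right at 4 h and at 3 days, with log2 fold changes of -0.65 ± 0.41 (SE; limma, adjusted p = 0.446) and -0.68 ± 0.41 (adjusted p = 0.498). At 10 days it was the 1 mRNA with a negative value, -0.43 ± 0.41 (adjusted p = 0.592), and 10 days 5, highest of that group in the other 12 mRNAs, was its lowest library. As a share of the mRNA sum it made up 1.99%, 1.96% and 1.18% at 4 h, 2.20%, 2.27% and 1.63% at 1 day, 2.04%, 1.88% and 1.83% at 3 days and 2.12%, 2.54% and 0.628% at 10 days. The contralateral left had 2.71%, 2.50% and 1.46%, against 2.42%, 2.40% and 2.32% in sham right. The lowest 3 of the 18 were thus 10 days 5, 4 h 6 and contralateral left 5. Without 4 h 6 its value at 4 h is -0.30.

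Complex III passes electrons on to cytochrome c and has mt-Cytb, its cytochrome b, from this chromosome. mt-Cytb had 8869.9, 8489.9 and 7189 FPKM at 4 h, 7259, 9203 and 5889 at 1 day, 6466, 7667 and 6781 at 3 days and 8063, 8021 and 14444 at 10 days. mt-Cytb stood at 12273, 10105 and 7542 FPKM on the contralateral left, against 7493, 8457 and 8904 in sham right. This was the only mRNA whose 3-day libraries reached into the sham right range; its log2 fold change at 3 days was -0.25 ± 0.26 (SE; adjusted p = 0.738).

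Complex IV hands the electrons to oxygen, and its 3 core subunits come from mt-Co1, mt-Co2 and mt-Co3. mt-Co1, which holds the site of oxygen reduction, had 19707, 19616 and 17358 FPKM at 4 h, 18239, 22064 and 14013 at 1 day, 15515, 17606 and 15807 at 3 days and 19778, 20685 and 45041 at 10 days. mt-Co1 stood at 32806, 24686 and 18801 FPKM on the contralateral left, against 17924, 20372 and 23268 in sham right. Its 10 days 5 value was the highest FPKM of any mRNA of this chromosome in any library. mt-Co2, which takes the electrons from cytochrome c, had 7931, 7829 and 5983 FPKM at 4 h, 6445, 8278 and 5357 at 1 day, 5794, 6792 and 5991 at 3 days and 7508, 7239 and 12236 at 10 days. mt-Co2 stood at 10493, 9319 and 6549.8 FPKM on the contralateral left, against 6945, 7657 and 7753 in sham right. At 3 days the libraries lay below sham right, and at 4 h they fell on both sides of it. mt-Co3, a stabilising core subunit, had 9377, 8715 and 7025 FPKM at 4 h, 7068, 9553 and 5763 at 1 day, 6238, 7474 and 6774 at 3 days and 9411, 8363 and 15736 at 10 days. mt-Co3 stood at 14729, 10747 and 8300.1 FPKM on the contralateral left, against 7751, 9244 and 10444 in sham right. All 3 genes gave the same picture, low at 3 days in every library, lowest at 1 day in library 4, and 10 days 5 above all others.

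The proton channel subunit of ATP synthase is made from mt-Atp6 and a small accessory subunit from mt-Atp8. mt-Atp6 had 13293, 12409 and 9714 FPKM at 4 h, 10979, 14018 and 7996 at 1 day, 9127, 10454 and 9893 at 3 days and 12246, 12568 and 27015 at 10 days. mt-Atp6 stood at 18706, 15555 and 10702 FPKM on the contralateral left, against 12219.7, 13204 and 14532 in sham right. Its 3-day libraries were below sham right as well. mt-Atp8, only 204 bases long, had 18814, 18717 and 14765 FPKM at 4 h, 16355, 21775 and 11568 at 1 day, 14159, 14982 and 15625 at 3 days and 18524, 18614 and 29332 at 10 days. mt-Atp8 stood at 27796, 22362 and 17497 FPKM on the contralateral left, against 18048, 21114 and 22775 in sham right. At 3 days their log2 fold changes were -0.44 ± 0.31 (SE; limma, adjusted p = 0.575) and -0.46 ± 0.27 (adjusted p = 0.449), and no 3-day library reached the lowest sham right value. By complex, the mRNA pool was divided as follows. Complex I mRNAs were 26.1% ± 0.271 of the mRNA sum at 3 days, against 25.4% ± 0.930 in sham right, and complex IV mRNAs 35.5% ± 0.699, against 34.9% ± 0.795. Complex III had 8.43% ± 0.246, against 7.80% ± 0.114, with no overlap between libraries. Its share also lay above the highest sham right share of 7.89% in every library at 4 h (lowest 8.27%) and 1 day (lowest 8.04%), and overlapped with sham right at 10 days and on the contralateral left. ATP synthase mRNAs were 29.97% ± 1.1 at 3 days, against 31.9% ± 0.234 in sham right (SD, n = 3 each), again without overlap. In every other group, too, all libraries were below the lowest sham right share of 31.7%, with highest values of 30.5% at 4 h, 31.3% at 1 day, 31.1% at 10 days and 30.6% on the contralateral left. All these comparisons rest on the same 3 sham right libraries, and how often other shares separate from them was not worked out. The mRNAs with a copy on chromosome 1, such as mt-Atp6 and mt-Co1, also enter these sums.

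Across the 13 mRNAs the median log2 fold change was -0.11 at 4 h, -0.20 at 1 day, -0.31 at 3 days, 0.24 at 10 days and 0.23 on the contralateral left, beside 0.01, 0.03, 0.08, -0.07 and -0.05 over all genes tested. The 4 h value turns positive, to at most 0.03, when values are rescaled to the summed FPKM or to the sum outside the mitochondrial chromosome, so it has no fixed direction. At 3 days 12 of 13 mRNAs had all 3 libraries below all 3 of sham right, which 9.67% of all genes tested also did. At 4 h this held for mt-Nd3 alone (17.2% of all genes), at 1 day for 0 (8.5%) and at 10 days for 0 (13.2%). On the contralateral left 0 mRNAs lay wholly above sham right (3.6%) and 0 below (8.29%). No mRNA lay wholly above it at 4 h (18.8%), 1 day (14.3%), 3 days (27.2%) or 10 days (13.8%). As shares of the summed FPKM, only mt-Nd1, mt-Nd3, mt-Nd4, mt-Atp6 and mt-Atp8 lay wholly below sham right at 3 days. The other mRNAs overlapped, as mt-Co1 did with 4.96% in 3 days 2 and 4.81% in sham right 1. The same count over all genes was not made on that scale. These 13 RNAs are cut from shared precursors, so they are not independent observations.

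Within a group the mRNAs went up and down together by library. Library 4 was lowest in all 13 at 1 day and library 3 highest in all 13, library 6 lowest in all 13 at 4 h, and on the contralateral left library 1 was highest and library 5 lowest in all 13. Single libraries therefore set several group values. Without 10 days 5 the 10-day median is -0.12, without contralateral left 5 the left-side median is 0.46 and without contralateral left 1 it is 0.07. At 1 day it is -0.36 without library 3 and -0.03 without library 4, and at 4 h -0.01 without library 6. The 3-day median ran from -0.38 to -0.25 under the same exercise.

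**Figure D3:**
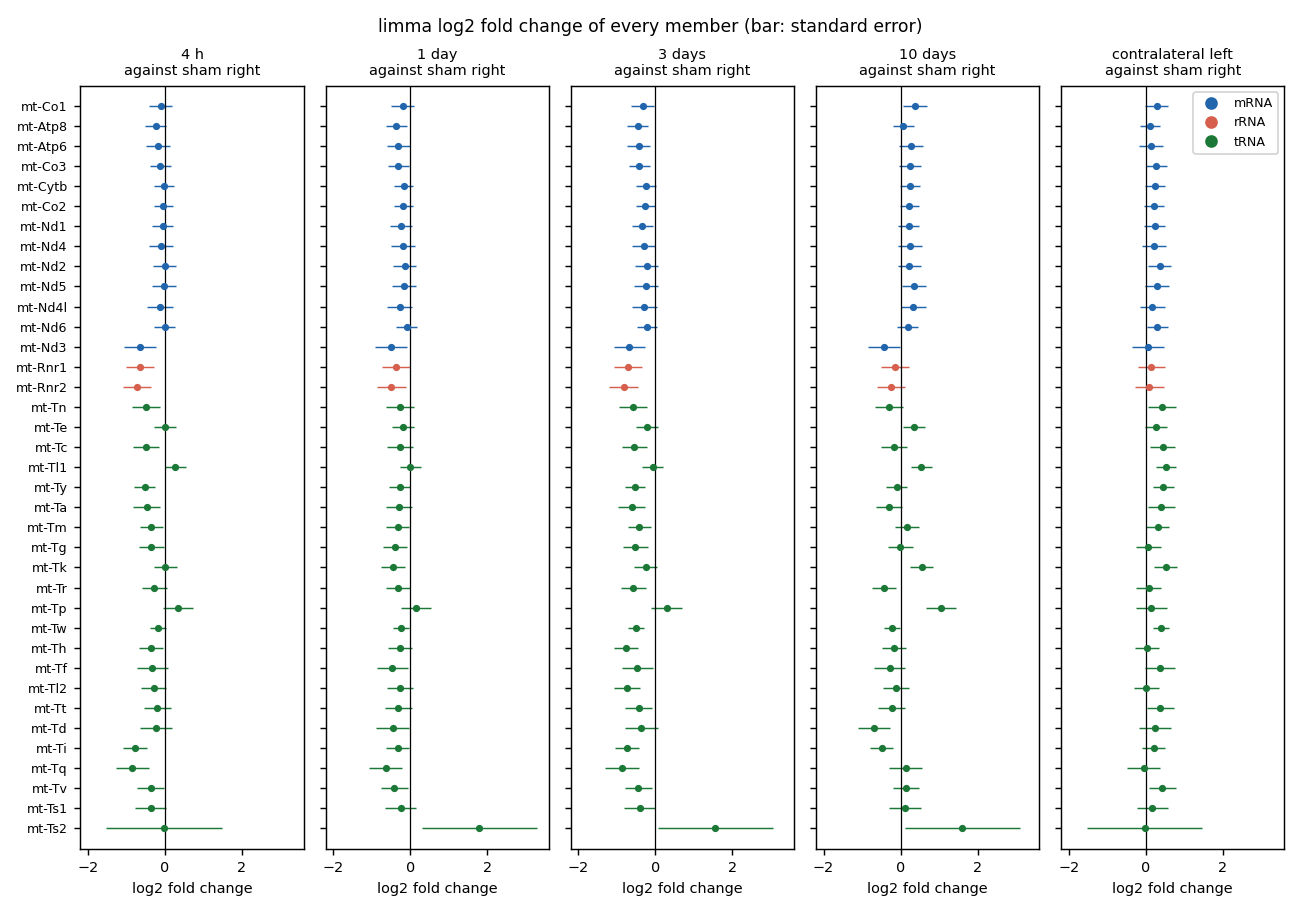
Log2 fold change against sham right (limma, bars are standard errors) of each of the 37 RNAs in 5 comparisons, with mRNAs on top, then rRNAs, then tRNAs. The 3-day values of the mRNAs lie between -0.68 and -0.22, and the widest bars belong to mt-Ts2, which was above 1 FPKM in 3 libraries only.

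The rRNAs of the small and large subunit of the mitochondrial ribosome stand near the start of the heavy-strand transcript and lie at chrM:70-1024 and chrM:1094-2675. mt-Rnr1 had 3464, 3696 and 2039 FPKM at 4 h, 4020.3, 4524 and 2635 at 1 day, 2938, 2818 and 2782 at 3 days and 3554, 3904 and 5367 at 10 days. mt-Rnr1 stood at 7731, 7207 and 2491 FPKM on the contralateral left, against 4753, 4387 and 4918 in sham right. Every 4 h and 3-day library lay below sham right, as for 17.2% and 9.67% of all genes tested. mt-Rnr2 had 3393, 3554 and 1891 FPKM at 4 h, 3739, 4379 and 2313 at 1 day, 2737, 2620.4 and 2597 at 3 days and 3571, 3897 and 4448 at 10 days. mt-Rnr2 stood at 7743, 6794 and 2414 FPKM on the contralateral left, against 4607, 4406 and 5144 in sham right. The same held for mt-Rnr2, which at 1 day was also below in every library (8.5% of all genes). The log2 fold change of mt-Rnr2 was -0.73 ± 0.37 at 4 h (SE; limma, adjusted p = 0.336) and -0.83 ± 0.37 at 3 days (adjusted p = 0.263), and that of mt-Rnr1 -0.66 ± 0.36 (adjusted p = 0.380) and -0.72 ± 0.36 (adjusted p = 0.356). Without 4 h 6 the 4 h value of mt-Rnr2 is -0.44. At 10 days the values overlapped with sham right, at -0.25 ± 0.37 for mt-Rnr2 and -0.15 ± 0.36 for mt-Rnr1.

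Set against the mRNAs, the rRNA sum was 6.51%, 7.06% and 4.71% of the mRNA sum at 4 h, 8.63%, 7.78% and 7.24% at 1 day, 7.29%, 6.18% and 6.55% at 3 days and 7.20%, 7.74% and 5.04% at 10 days. It was 9.76%, 11.0% and 5.32% on the contralateral left, against 9.80%, 8.20% and 8.67% in sham right. All 9 libraries at 4 h, 3 days and 10 days lay below sham right, and 4 h 6, 10 days 5 and contralateral left 5 were again the lowest of the 18. How often other ratios of this kind lie wholly below the same sham right libraries was not worked out. Whether rRNA was depleted from these libraries is not given in the sources used here. The rRNA values therefore describe what the libraries held and cannot be read as the amount of rRNA in the tissue. The nuclear rRNA entry CT010467.1, on chromosome 17, had 210, 229 and 239 FPKM at 4 h and 246, 336 and 103 at 3 days, against 830, 718 and 1054 in sham right, and 26.1 in 10 days 5. Short structured nuclear-encoded RNAs summed to 65.1 to 75.9 FPKM at 4 h and 13.2 to 127 at 3 days, against 125 to 493 in sham right. The part of either in the mitochondrial rRNA values was not tested.

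**Figure D4:**
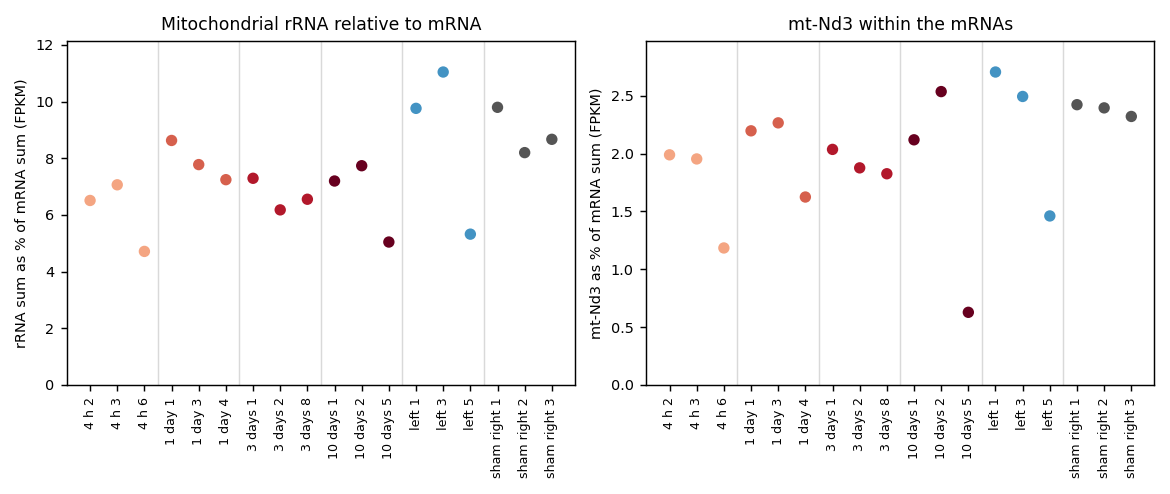
Left, the summed FPKM of mt-Rnr1 and mt-Rnr2 as a percentage of that of the 13 mRNAs; right, mt-Nd3 as a percentage of the same sum, 1 point per library. In both panels 4 h 6, 10 days 5 and contralateral left 5 are the lowest of the 18, with rRNA at 4.71%, 5.04% and 5.32% of the mRNA sum.

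The tRNAs, of 59 to 75 bases, are shorter than the fragments usually sequenced, and how length was corrected for them is not given, so their FPKM describe the same gene across libraries only. Their median FPKM ran from 0.249 to 664, and their order is not read here. At 3 days 18 of the 22 lay below all sham right libraries and 0 above, beside 9.67% and 27.2% of all genes tested. At 4 h 6 lay below (17.2% of all genes) and 1, mt-Tl1, above (18.8%), at 1 day 5 below (8.5%), at 10 days mt-Ti below (13.2%), and on the contralateral left mt-Tl1 again above (3.6%). Their median log2 fold changes were -0.34, -0.29, -0.49 and -0.11 at 4 h, 1 day, 3 days and 10 days and 0.29 on the contralateral left. Among the 18 that lay below at 3 days, mt-Tm, mt-Ty, mt-Tk, mt-Te and mt-Tt overlapped with sham right as shares of the summed FPKM.

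mt-Ti and mt-Tq, the overlapping pair shown above, had the most negative values at 4 h. mt-Ti had 39.4, 35.7 and 21.3 FPKM at 4 h, 42, 48.5 and 38.3 at 1 day, 38.3, 35.5 and 24 at 3 days and 36.7, 44.6 and 33.8 at 10 days. mt-Ti stood at 91.9, 73.3 and 35.7 FPKM on the contralateral left, against 46.5, 48.3 and 70.2 in sham right. Its log2 fold change was -0.78 ± 0.30 at 4 h (SE; limma, adjusted p = 0.213) and -0.74 ± 0.30 at 3 days (adjusted p = 0.210). mt-Tq had 36.6, 19.4 and 14 FPKM at 4 h, 23.9, 29.9 and 22.7 at 1 day, 19.8, 28.6 and 17.1 at 3 days and 26.5, 29.5 and 106 at 10 days. mt-Tq stood at 49.9, 44.6 and 25.1 FPKM on the contralateral left, against 37.9, 38 and 43.9 in sham right. The values were -0.86 ± 0.43 at 4 h (adjusted p = 0.338) and -0.87 ± 0.43 at 3 days (adjusted p = 0.340), and at 10 days library 5 stood above all the other libraries.

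The smallest adjusted p at 3 days, 0.205, belonged to mt-Tw. It had 68.4, 69.5 and 60.2 FPKM at 4 h, 71.1, 77.5 and 45.1 at 1 day, 50, 51.6 and 56.2 at 3 days and 59.2, 64 and 68.8 at 10 days. mt-Tw stood at 135, 98 and 74.1 FPKM on the contralateral left, against 68.7, 74.5 and 82.7 in sham right. Its log2 fold change at 3 days was -0.51 ± 0.21 (SE), with all 3 libraries below sham right.

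A few tRNAs had positive values where most were negative. mt-Tp, the last annotated gene before the control region, had 87.4, 69.5 and 82.4 FPKM at 4 h, 68.4, 63.2 and 77.8 at 1 day, 66.2, 64.9 and 106 at 3 days and 53.5, 194 and 217 at 10 days. mt-Tp stood at 49.9, 66.3 and 102 FPKM on the contralateral left, against 57.2, 72.3 and 60.1 in sham right. At 10 days the log2 fold change was 1.05 ± 0.39 (SE; limma, adjusted p = 0.146), with libraries 2 and 5 high and library 1 below all of sham right; without library 1 mt-Tp was called (adjusted p = 0.000495, with 7.99% of all genes called). mt-Tl1, between mt-Rnr2 and mt-Nd1, had 519, 487 and 496 FPKM at 4 h, 443, 521 and 315 at 1 day, 364, 386 and 439 at 3 days and 484, 445 and 1017 at 10 days. mt-Tl1 stood at 763, 572 and 493 FPKM on the contralateral left, against 417, 378 and 459 in sham right. At 4 h and on the contralateral left every library lay above sham right, with log2 fold changes of 0.26 ± 0.27 (SE; adjusted p = 0.643) and 0.52 ± 0.27 (adjusted p = 0.682).

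mt-Ts2, a serine tRNA (chrM:11613-11671), passed the filter through 3 libraries only. It had 52.1 FPKM in 1 day 1, 33.3 in 3 days 1 and 36.2 in 10 days 5, against 0.2 to 0.3 in the other 15 libraries, sham right included. These 3 values stood for 70.6, 54.0 and 26.9 nominal fragments, and the other 15 for less than 1 each, with no value in between. Its log2 fold change of 1.80 at 1 day (limma, adjusted p = 0.883) rests on 1 library, as do those at 3 days and 10 days. The other serine tRNA, mt-Ts1, had the fewest fragments of the tRNAs measured in all libraries, down to 2.12 in 3 days 8.

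The chromosome 1 copies decide how firmly the 7 mRNAs with such a copy can be placed. The ratio of mt-Co2 to Gm28661 lay between 0.995 and 1.00 in all 18 libraries, that of mt-Co3 to Gm28437 between 0.998 and 1.01, that of mt-Nd4l to Gm10222 between 0.994 and 1.02, and that of mt-Nd3 to Gm28438 between 1.04 and 1.07. The pseudogene therefore had nearly the same FPKM as the mitochondrial gene in every library. mt-Atp6 had 1.60 to 1.72 times the FPKM of Gm10925, mt-Nd4, copied in part, 1.55 to 2.09 times that of Gm28439, and mt-Co1, also copied in part, 2.92 to 3.57 times that of Gm29216. How reads that fit both places were assigned is not given in the sources used here, so the level of these 7 mRNAs is uncertain. The 7 pseudogenes took 7.81% to 15.3% of the summed FPKM, and with them counted the mitochondrial share was 33.8% to 36.3% at 3 days, against 38.4% to 43.6% in sham right.

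**Figure D5:**
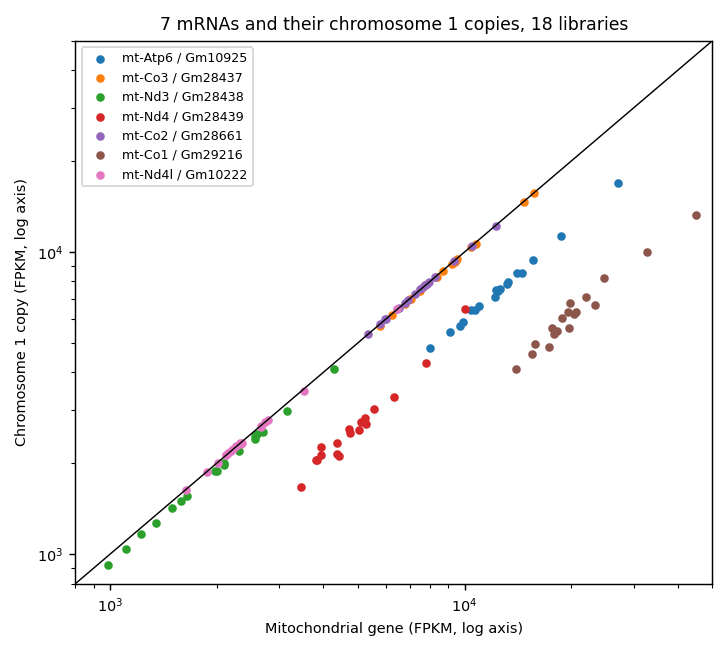
FPKM of 7 chromosome 1 pseudogenes against that of the mitochondrial mRNA each copies, 18 points per pair on log axes, with the line of equal values. Points of mt-Co2, mt-Co3, mt-Nd4l and mt-Nd3 follow the line (median ratios of 0.999, 1.01, 1.00 and 1.06), and those of mt-Atp6, mt-Nd4 and mt-Co1 lie to its right.

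Of the 6 mRNAs without an annotated copy, mt-Nd1, mt-Nd2, mt-Nd5, mt-Nd6 and mt-Cytb lie outside the copied span. mt-Atp8 lies inside it and is not free of this doubt. The 43 bases it shares with mt-Atp6 are also in Gm10925. The median log2 fold change of these 6, mt-Atp8 included, was -0.03, -0.17, -0.25 and 0.21 at 4 h, 1 day, 3 days and 10 days and 0.26 on the contralateral left. That of the 7 with a copy was -0.13, -0.27, -0.33 and 0.24, and 0.21 on the contralateral left. mt-Atp8 and 5 tRNAs (mt-Ts1, mt-Td, mt-Tk, mt-Tg and mt-Tr) fall within the copied span without an annotated pseudogene of their own.

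The calls at 3 days depended on which libraries shared the fit. With only the 3-day and sham right libraries in the fit, 14 members were called lower: both rRNAs, mt-Atp6, mt-Atp8, mt-Nd3 and 9 tRNAs (limma, adjusted p from 0.00122 to 0.0397), in a fit that called 13.1% of all genes. At 1 day mt-Tq was called lower in the like fit (adjusted p = 0.0422; 2.3% of all genes). mt-Rnr1, mt-Rnr2 and mt-Tq were called lower at 3 days, and mt-Ti and mt-Tq at 4 h, when contralateral left 5 and 10 days 5 were both left out, which called 12.6% and 12.9% of all genes at these times. In that fit 12 members, mt-Nd2 and 11 tRNAs, were called higher on the contralateral left, which then had 2 libraries (19.7% of all genes). With contralateral left as the control, mt-Tw and mt-Ty were called lower at 3 days (9.99% of all genes), and with both control groups mt-Ti and mt-Tw (9.98%).

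Of 75 mitochondrial ribosomal protein genes (Mrpl and Mrps), 1 was called. Mrps6, of the small subunit, rose: it had 39.7 ± 5.08 FPKM at 1 day and 56.2 ± 4.74 at 3 days, against 20.3 ± 1.57 in sham right (SD, n = 3 each; limma, adjusted p = 0.0371 and 0.000203). The list's median log2 fold change was -0.23, -0.04, -0.02 and -0.19 at 4 h, 1 day, 3 days and 10 days and 0.03 on the contralateral left, and 8 of the 75 were lower at 4 h at an unadjusted p under 0.05, where 8.27% of all genes were. Of 31 nuclear partners in the respiratory chain 0 were called, with medians of -0.24, -0.09, -0.17, -0.31 and 0.01 in the same order, and at 10 days all 31 had values below 0, 2 of them at an unadjusted p under 0.05 (8.63% of all genes). The 10-day values rest on library 5, whose partners summed to 1771 FPKM beside 3036 and 3247 in libraries 1 and 2. Without it, a comparison chosen after seeing the data, the partners' median at 10 days is -0.07 with 25 of 31 below 0, and that of the 75 ribosomal protein genes is -0.00 with 38 below 0. The most abundant of them, Cox6a1 and Cox4i1 of complex IV, had 388 ± 83.0 and 187 ± 32.9 FPKM at 3 days, against 488 ± 67.6 and 237 ± 19.7 in sham right. At 10 days they had 394 ± 194 and 202 ± 60.6.

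Of the genes that copy and transcribe mitochondrial DNA 11 were tested and 0 called, with medians of -0.06, -0.03, 0.04, -0.08 and -0.02 in that order. Endog, a mitochondrial nuclease, had 11.2 ± 2.79 FPKM at 3 days, against 13.2 ± 1.58 in sham right, and Mterf2, of the termination factor family, 9.82 ± 0.693, against 10.8 ± 1.49. Of 17 genes for mitochondrial RNA processing and decay 0 were called (0.03, 0.10, 0.07, -0.02 and -0.05); Grsf1, which binds RNA in mitochondrial granules, had 34.9 ± 2.28 FPKM at 4 h, against 26.8 ± 0.738 in sham right, and Rexo2, an exonuclease of short RNAs, 11.4 ± 1.98, against 12.9 ± 0.290. Of 18 genes for mitochondrial mass, import and dynamics 0 were called as well (-0.02, 0.03, 0.03, -0.27 and -0.02). Without 10 days 5 the 10-day medians of these 3 lists are 0.05, -0.04 and -0.03, beside -0.00 over all genes. Vdac1, the main pore of the outer membrane, had 155 ± 15.7 FPKM at 3 days, against 137 ± 4.23 in sham right, and Pink1, a kinase of mitochondrial quality control, 107 ± 19.7, against 123 ± 22.4 (SD, n = 3 each). At an unadjusted p under 0.05, these 3 lists had at most 3 genes each in any comparison. That was reached at 4 h, with 1 higher and 2 lower of the 11 and 2 higher and 1 lower of the 17. Of all genes tested, 8.18% were higher and 8.27% lower at 4 h by that measure.

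Markers of the cells in the punches were read beside these values. Skeletal muscle markers, which brain should lack, summed to 1.94 to 6.12 FPKM. All 10 neuronal markers were present, their summed FPKM was 1097 to 1363 at 3 days, against 1163 to 1284 in sham right, and 0 of them were called at any time (limma; 2 lower at 10 days at an unadjusted p under 0.05). Microglial markers summed to 388 to 524 FPKM at 3 days and 743 to 858 at 10 days, against 121 to 160 in sham right, with 5 of 8 called higher at each time. Among them Sall1 was called lower at 4 h (limma, adjusted p = 0.0248) and higher at 10 days (adjusted p = 0.001). Markers of monocytes and macrophages summed to 125 to 257 at 3 days and 606 to 2092 at 10 days, the highest in 10 days 5, against 17.1 to 23.9 in sham right. Of the 7 tested, 6 were called higher at 3 days and 7 at 10 days. Over all 14016 genes tested, 968 were called higher at 3 days and 871 at 10 days. Astrocyte markers summed to 841 to 1059 FPKM at 3 days, against 587 to 654 in sham right. That difference was Gfap's, which had 434 ± 78.2 FPKM at 3 days, against 49.0 ± 5.47 in sham right (SD, n = 3 each; limma, adjusted p = 1.44e-06). The other 7 astrocyte markers summed to 417 to 542 at 3 days, against 545 to 602, and the list's median log2 fold change was -0.02 with 4 of 8 below 0. Among these 7, Aldh1l1 was called higher at 3 days (limma, adjusted p = 0.0322) and Aqp4 lower at 4 h (adjusted p = 0.0067). Oligodendrocyte markers summed to 793 to 1146 FPKM at 3 days, against 899.8 to 1309.8, and neutrophil markers to 8.09 to 13.4, against 1.85 to 6.63. From these lists Cldn11, of oligodendrocytes, was called higher at 3 days (limma, adjusted p = 0.0332). Csf3r, of neutrophils, was called higher at 3 days (adjusted p = 0.000142) and 10 days (adjusted p = 1.85e-06). Choroid plexus markers ran from 1.19 to 633 over the 18 libraries, with both extremes among the stroke libraries. Endothelial markers summed to 57.2 to 81.6 FPKM at 4 h, against 123 to 134 in sham right. Of these 8, 3 were called lower at 4 h (Tek, Slco1a4 and Itm2a), as were 121 of the 14016 genes tested. Itm2a was also called lower at 1 day, where 39 genes were, and Pecam1 higher at 3 days. Red blood cell markers summed to 122 to 895 FPKM over the 18 libraries, with 0 of 5 called. The part of these markers' changes in the mitochondrial values was not tested.

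RNAs that stay in the nucleus differed between libraries of a group as well. The 6 on the list summed to 295, 265 and 490 FPKM at 4 h, 292, 130 and 473 at 1 day, 343, 186 and 428 at 3 days and 278, 108 and 123 at 10 days, with 80.2, 100 and 425 on the contralateral left, against 111, 166 and 158 in sham right. Libraries 4 h 6, 1 day 4 and contralateral left 5, the lowest of their groups in all 13 mitochondrial mRNAs, were the highest of their groups here, while 3 days 8 was highest here and lowest in 2 of 13. In sham right, library 1 was the lowest of its group both here and in 12 of the 13 mRNAs. These values moved with the library and their part in the mitochondrial values was not tested.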

How the data were processed

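Total RNA of brain punches was sequenced in 18 libraries of 6 groups with 3 mice each, with the VAHTS total RNA (H/M/R) kit per the labels' protocols. The tools named in the submitters' processing notes are HISAT2 2.1.0, StringTie 1.3.4d and Trimmomatic 0.36, and the genome build is GRCm38; rRNA depletion, strand handling and the treatment of reads that fit several places are not given in the sources used here. The authors deposited FPKM per gene and library, and p-value columns of their own that were not used. Of the table, 34921 complete rows were used here, and about 3101 further rows were not analysed here. Summed FPKM and shares are over those rows.

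Members are the genes that GENCODE release M21 places on the mitochondrial chromosome. Sequences were aligned with Biopython 1.88. Tests used limma 3.58.1 with trend and robust moderation in R 4.3.3, on log2(FPKM + 1) of 14016 genes with at least 1 FPKM in 3 or more libraries, all 6 groups in 1 fit, with Benjamini-Hochberg adjustment over all genes; fold changes are on that scale. The code was tested on simulated data. The members, lists and tests were chosen with earlier results of these data known. Genes of the nuclear lists that are named are some of the called ones, or the 2 most abundant where 0 of a list were called. Nominal fragments were worked out from the smallest FPKM steps, of which 38.4% to 45% came out whole within 0.1, so they are rough. Alternatives were other pseudocounts, filters, scalings, control groups, fits of only 2 groups, the library number as a block and leaving out libraries; those on the pseudogenes, and the nuclear lists without 10 days 5, were chosen after seeing the data. The library numbers were not used as pairs in the main tests, and a check of them is given with the alternatives.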

Additional observations from a re-analysis of the deposited data

How the results depend on the processing

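Limits: each group has 3 mice, values are FPKM without read counts, and strand and rRNA depletion are not given. Also, 7 mRNAs and at least part of mt-Atp8 share sequence with chromosome 1. Of 3256 values of single members under the alternatives, 3026 kept their direction and side of the threshold, 37 passed it and 193 changed sign without being called. The direction of the mRNA median at 3 days held under every alternative run.

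The number of members called was 0 in every comparison, with these exceptions. In fits of only the 2 groups compared, 1 was called lower at 1 day and 14 at 3 days. With contralateral left as the control, 2 were lower at 3 days and 1 was called over all times, and with both control groups 2 were lower at 3 days. Without contralateral left 5 and 10 days 5 together, 2 were lower at 4 h, 3 were lower at 3 days, 12 were higher on the contralateral left and 1 was called over all times; the mRNA median at 10 days was then -0.12. Leaving out 1 library at a time gave 0 to 1 members higher at 10 days and 0 to 1 over all times, and a 10-day median of -0.12 (without library 5) to 0.41. The cause was not tested.

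Of all genes tested, 306 were called at 4 h, 165 at 1 day, 1032 at 3 days, 1000 at 10 days, 4 on the contralateral left and 1889 over all times. On the contralateral left 0 were called with no filter on low values, with shares of the summed FPKM, with rescaling to the sum outside the mitochondrial chromosome and in the fit of 2 groups, and 2 when the pseudogenes were also left out of that sum, a setting chosen after seeing the data. Shares gave 114 at 4 h. Fits of 2 groups gave 761 at 4 h, 323 at 1 day and 1834 at 3 days. Contralateral left as the control gave 176 at 4 h, and both control groups gave 252 at 1 day. Without contralateral left 5 and 10 days 5, the counts were 1806 at 4 h, 418 at 1 day, 1772 at 3 days, 2760 on the contralateral left and 3306 over all times. Leaving out 1 library gave 90 to 194 at 4 h, 85 to 156 at 1 day, 680 to 1050 at 3 days, 737 to 1161 at 10 days, 0 to 1213 on the contralateral left (the highest without library 5) and 1547 to 2634 over all times. With shares the median of all genes at 3 days was 0.20 on the log2 scale, against 0.08. They also moved the part of called genes that were higher at 4 h to 75.4%, against 60.5%, and at 1 day to 92.5%, against 76.4%; it was 70.6% at 4 h with no filter and 71.8% with rescaling to the outside sum.

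With the library number as a replicate block, 0 members were called, and 106 genes at 4 h, 62 at 1 day, 1 on the contralateral left and 1135 over all times; the mRNA medians were -0.02, -0.06, -0.24 and 0.23 at 4 h, 1 day, 3 days and 10 days and 0.17 on the contralateral left. Of 23 pairs with the same number, 9 had a correlation of deviations over 0.1 (from -0.227 to 0.409). The best match had the same number in 4 of 15 libraries. This tally includes pairs across times after stroke. The labels of contralateral left and sham right differ only in side for libraries 1 and 3, whose correlations were 0.219 and 0.102. Whether those come from the same mice cannot be told from the tally.

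The mitochondrial share was 28.8% at 4 h and 24.8% at 3 days, against 29.0% in sham right, without tRNAs and rRNAs, and 34.1% and 29.1%, against 35.1%, over protein-coding genes only. With the chromosome 1 pseudogenes counted in, chosen after seeing the data, it was 40.7%, 37.9%, 35.3% and 46.2% at 4 h, 1 day, 3 days and 10 days and 45.2% on the contralateral left, against 41.5% in sham right.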
